A study of Homo sapiens with 24 samples.

Results

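ADAR encodes the enzyme that converts adenosine to inosine in double-stranded RNA, and its mRNA was read here by 2 array probes, ILMN_1776777 and ILMN_2320964, of the 47231 probes measured. They were taken by their probe IDs, both of which the Illumina annotation of this array gives as ADAR. The gene was chosen by its IFNγ effect in siCtrl and siSUZ12 cells on these arrays, as a modest target of IFNγ that does not depend on SUZ12. Its IFNγ and siSUZ12 values in cells without siBRM are therefore descriptions and carry no test, and tests are given only for contrasts in which every array had siBRM. The spread used in those tests was pooled over all groups, so it also rests on the arrays that chose the gene. Whether ADAR depends on SUZ12, as the choice of the gene had it, is not judged here. As set out below, the ADAR signal was higher after siSUZ12 in cells with and without siBRM, though not every tested rise passed. A change of the IFNγ induction by siSUZ12 was not shown in siBRM cells.

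The cells were SW-13, a human adrenocortical carcinoma line that lacks BRG1, the ATPase of the SWI/SNF chromatin remodeller. They were transfected with siCtrl, siSUZ12, siCtrl + siBRM or siSUZ12 + siBRM, and for each of these some cultures stayed untreated while others had IFNγ for 6 hours, which gave 8 groups of 3 biological replicates, or 24 arrays. SUZ12 is a core subunit of PRC2, the complex that writes the repressive mark H3K27me3, and BRM is the ATPase related to BRG1. siBRM came on top of the other siRNA and no group had the same total siRNA without it, so an effect of BRM loss and one of siRNA load cannot be told apart.

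IFNγ binds its receptor on the cell surface and acts through kinases bound to that receptor, which leads to transcription of the IFNγ stimulated genes. ADAR is a well known member of the interferon response. It is transcribed from several start sites, one of which is interferon-inducible and yields the longer p150 protein of the cytoplasm, while constitutive starts yield the shorter nuclear p110. By editing the cell's own double-stranded RNA, the enzyme keeps it from being sensed as viral. Which ADAR transcripts each probe reads is not given in the sources used here, so the probes are reported apart, and their brightness is not compared as transcript abundance.

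In the RefSeq annotation of GRCh38.p14, ADAR lies on the minus strand of chromosome 1, from 154582057 to 154627997. The promoter table made from RefSeq holds 3 start windows of this gene, each with 250 bases before the start and 50 bases after it, and 2 of the 3 overlap. Printed are 1 window of the overlapping pair and the window apart from it, to show promoter sequence from which transcripts read by the probes may start. They run 5′ to 3′ on the minus strand, and capitals mark the bases from the start site on. The first is chr1:154627948-154628247 and the second is chr1:154608748-154609047.
ADAR upstream start: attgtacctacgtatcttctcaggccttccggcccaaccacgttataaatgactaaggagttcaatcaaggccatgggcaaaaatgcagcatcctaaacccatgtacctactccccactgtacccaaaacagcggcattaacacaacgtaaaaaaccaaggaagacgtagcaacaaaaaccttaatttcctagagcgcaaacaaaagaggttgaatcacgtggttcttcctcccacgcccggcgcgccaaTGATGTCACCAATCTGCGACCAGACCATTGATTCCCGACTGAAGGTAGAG
ADAR downstream start: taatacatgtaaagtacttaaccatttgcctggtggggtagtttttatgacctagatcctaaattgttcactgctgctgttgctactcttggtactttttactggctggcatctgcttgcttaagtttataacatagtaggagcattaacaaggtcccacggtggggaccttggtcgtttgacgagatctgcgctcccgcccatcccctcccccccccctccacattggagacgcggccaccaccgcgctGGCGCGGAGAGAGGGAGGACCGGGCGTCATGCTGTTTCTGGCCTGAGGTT

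The letters GAAA, any 2 bases and again GAAA, the core of the interferon-stimulated response element, were searched on both strands and were found in none of the 3 ADAR windows. Among the 35116 windows of this length in the table, 3.57% held them. The absence says only that these letters are not within these windows. Which window, if any, holds the interferon-inducible start is not given in the sources used here.

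Both ADAR probes were well above background in every sample. Their detection p-value was below 0.01 on all 24 arrays, and arrays had between 15223 and 16799 such probes. Signals are given after each array was scaled to the common mean, by factors between 0.913 and 1.09. In untreated cells the signal of ILMN_1776777 was above that of 96.7% to 97.6% of the probes on its array, and with IFNγ above 98.1% to 99.0%. That of ILMN_2320964 was above 91.1% to 93.6% untreated and above 94.8% to 96.9% with IFNγ. Every array correlated best with another array of its own group, 24 of 24. Knockdown of SUZ12 and BRM could not be read from these arrays, because the probe IDs are not paired with gene names here. An array measures a whole culture, so more responding cells and more ADAR mRNA per cell cannot be told apart.

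**Figure D1:**
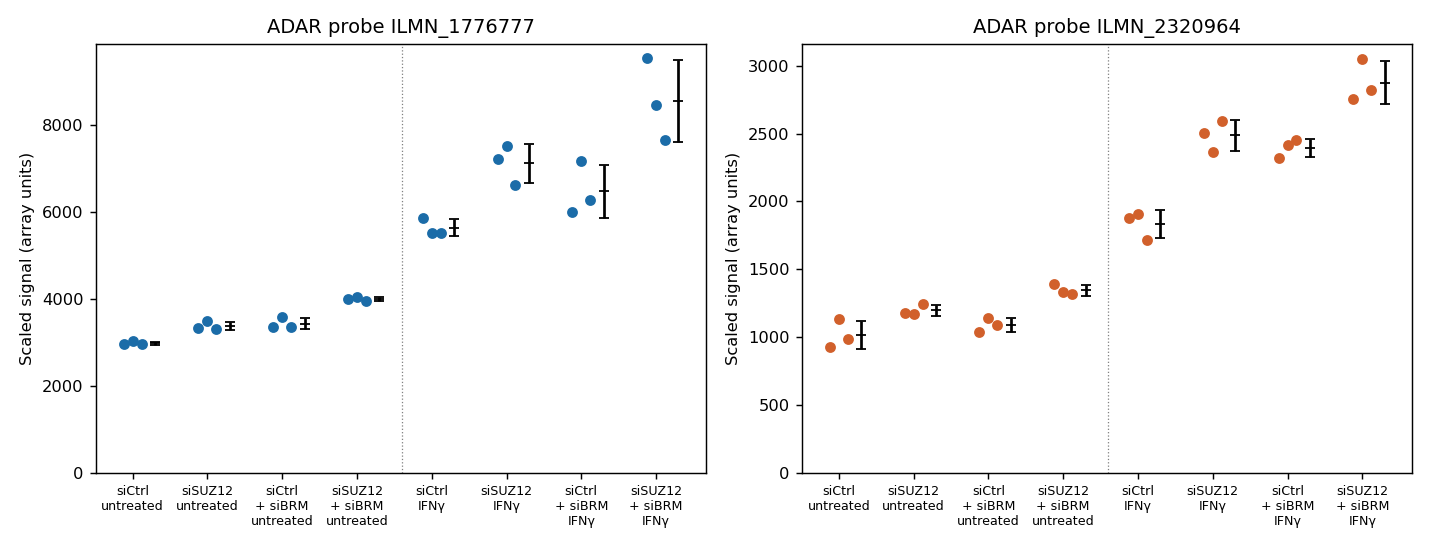
Scaled signal (array units, linear axis from 0) of the 2 ADAR probes on each of the 24 arrays, by group, with points for replicates 1 to 3 and the bar beside them for the mean ± SD (n = 3). Every array with IFNγ lies above every untreated array for both probes, and the siSUZ12 + siBRM cells with IFNγ are highest.

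ADAR was induced by IFNγ in siCtrl cells. ILMN_1776777 read 2967, 3021 and 2958 on the untreated arrays and 5864, 5523 and 5519 with IFNγ, a mean of 2982 ± 34.0 (SD, n = 3) against 5635 ± 198 (SD, n = 3). ILMN_2320964 read 929, 1130 and 985 untreated and 1880, 1909 and 1715 with IFNγ, or 1015 ± 104 (SD, n = 3) against 1835 ± 105 (SD, n = 3). The 3 arrays of each group stood apart from those of the other for both probes. Here and below, the share of all probes whose arrays stood apart in this way was not counted, so such separation is description only. The log2 difference was 0.92 for ILMN_1776777 and 0.86 for ILMN_2320964, which is 1.89-fold and 1.81-fold. These values were among those that chose the gene and are not tested. For scale, 0.593% of all probes passed as raised by IFNγ in siCtrl cells (called here and below where limma's p-value, adjusted by Benjamini-Hochberg, was under 0.05), and the 2 ADAR probes ranked 63 and 71 from the highest of the 47231 differences.

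After siSUZ12, the ADAR signal was higher in both states. Untreated siSUZ12 cells read 3322, 3480 and 3305 for ILMN_1776777, a mean of 3369 ± 96.4 (SD, n = 3), and 1180, 1167 and 1241 for ILMN_2320964, a mean of 1196 ± 39.5 (SD, n = 3). With IFNγ, ILMN_1776777 read 7211, 7518 and 6623, or 7117 ± 455 (SD, n = 3), and ILMN_2320964 read 2501, 2366 and 2595, or 2487 ± 115 (SD, n = 3). In each state the 3 siSUZ12 arrays lay above the 3 siCtrl arrays for both probes, a separation not counted over all probes and from which nothing is read. The siSUZ12 cells were 1.13-fold and 1.18-fold higher untreated and 1.26-fold and 1.36-fold higher with IFNγ, for ILMN_1776777 and ILMN_2320964 in that order. IFNγ raised the signal 2.11-fold and 2.08-fold in these cells, so the log2 induction was 0.16 and 0.20 larger than in siCtrl cells. These values also entered the choice of the gene and are given without a test. Among all probes, siSUZ12 raised 8.16% untreated and 7.28% with IFNγ, and 1.2% were raised by IFNγ in siSUZ12 cells.

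The siBRM arrays offered a repeat of the same treatments on other samples. Whether they were also looked at when the gene was chosen is not known. In siCtrl + siBRM cells, ILMN_1776777 read 3343, 3572 and 3360 untreated and 6004, 7160 and 6265 with IFNγ, which is 3425 ± 128 (SD, n = 3) against 6477 ± 606 (SD, n = 3). ILMN_2320964 read 1035, 1140 and 1090 untreated and 2321, 2413 and 2452 with IFNγ, or 1088 ± 52.9 (SD, n = 3) against 2395 ± 67.7 (SD, n = 3). No array with IFNγ fell within the untreated range. IFNγ raised ILMN_1776777 by a log2 of 0.92 (95% interval 0.75 to 1.08, adjusted p = 4.65e-10) and ILMN_2320964 by 1.14 (0.98 to 1.30, adjusted p = 6.68e-13), both by limma, adjusted over the 47231 probes. Both of the ADAR probes were thus called, where 0.987% of all probes were raised. ILMN_2320964 was raised 2.20-fold and ILMN_1776777 1.89-fold, and 0.159% of all probes were raised at least 2-fold.

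In siSUZ12 + siBRM cells the untreated ILMN_1776777 signals were 3997, 4044 and 3938, a mean of 3993 ± 52.9 (SD, n = 3), and those with IFNγ were 9534, 8465 and 7646, a mean of 8548 ± 947 (SD, n = 3). For ILMN_2320964 they were 1392, 1329 and 1316 untreated, or 1346 ± 40.6 (SD, n = 3), and 2756, 3053 and 2818 with IFNγ, or 2876 ± 157 (SD, n = 3). The arrays with IFNγ again lay wholly above the untreated arrays. The log2 rise was 1.09 for ILMN_1776777 (95% interval 0.93 to 1.26, adjusted p = 2.66e-12, limma) and 1.09 for ILMN_2320964 (0.93 to 1.26, adjusted p = 1.15e-12, limma), or 2.13-fold and 2.14-fold. IFNγ raised 1.44% of all probes in these cells, and 0.296% of all probes were raised at least 2-fold.

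With IFNγ, siSUZ12 raised the ADAR signal in siBRM cells too. ILMN_1776777 was 1.32-fold higher in siSUZ12 + siBRM than in siCtrl + siBRM cells, a log2 difference of 0.40 (95% interval 0.23 to 0.56, adjusted p = 0.000842, limma). ILMN_2320964 was 1.20-fold higher, a log2 difference of 0.26 (0.10 to 0.42, adjusted p = 0.0311, limma). The groups did not overlap on either probe, a separation not counted over all probes and from which nothing is read. By the adjusted p-value, 4.72% of all probes were raised in this comparison. The fit pooled the spread over all groups. For ILMN_1776777 the log2 SD was 0.133 and 0.159 in the groups compared here, and 0.016 in untreated siCtrl cells. With only the groups compared in the fit, its adjusted p was 0.0273 (limma). The call of ILMN_1776777 was lost without the arrays of replicate 1 (log2 0.26, adjusted p = 0.181, limma). That of ILMN_2320964 was lost without any 1 of the 3 replicate numbers and without any 1 of the 6 arrays except replicate 1 of siSUZ12 + siBRM cells with IFNγ, with log2 values from 0.22 to 0.29 and adjusted p-values up to 0.279 (limma).

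In untreated siBRM cells, siSUZ12 raised ILMN_2320964 1.24-fold, a log2 difference of 0.31 (95% interval 0.15 to 0.47, adjusted p = 0.00947, limma), where 5.04% of all probes were raised. ILMN_1776777 was 1.17-fold higher, a log2 difference of 0.22 (0.06 to 0.39) whose adjusted p of 0.1005 (limma) missed the threshold. That interval leaves out 0 but is not adjusted for the number of probes. Its 3 siSUZ12 + siBRM arrays lay above the 3 siCtrl + siBRM arrays, a separation not counted over all probes and from which nothing is read. The call of ILMN_2320964 was lost without replicate 1 (log2 0.25, adjusted p = 0.234) or replicate 3 (0.32, adjusted p = 0.0886), and without replicate 1 of the untreated siCtrl + siBRM arrays alone (0.27, adjusted p = 0.0674) or of the untreated siSUZ12 + siBRM arrays alone (0.28, adjusted p = 0.0533), all by limma.

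The fold induction of ADAR by IFNγ was not shown to differ between siSUZ12 + siBRM and siCtrl + siBRM cells. The log2 induction of ILMN_1776777 was 0.18 larger after siSUZ12 (95% interval -0.06 to 0.41, adjusted p = 0.9999, limma). The change was 0.095 without replicate 1 of the siSUZ12 + siBRM arrays with IFNγ and 0.060 without all arrays of replicate 1, and other leave-outs reached up to 0.25. For ILMN_2320964 the change was -0.04 on the log2 scale (-0.27 to 0.18, adjusted p = 0.9999, limma). Before adjustment the p-values were 0.136 for ILMN_1776777 and 0.694 for ILMN_2320964 (limma). The intervals are for single probes while the adjusted p-values take in all probes, so 0.9999 does not show that there was no change. As ratios of the 2 inductions, the intervals ran from 0.960 to 1.33 and from 0.828 to 1.14, so a rise in induction above 1.33-fold lay outside both. Among all probes, 0.0974% had a larger and 0.0191% a smaller induction by the same rule.

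**Figure D2:**
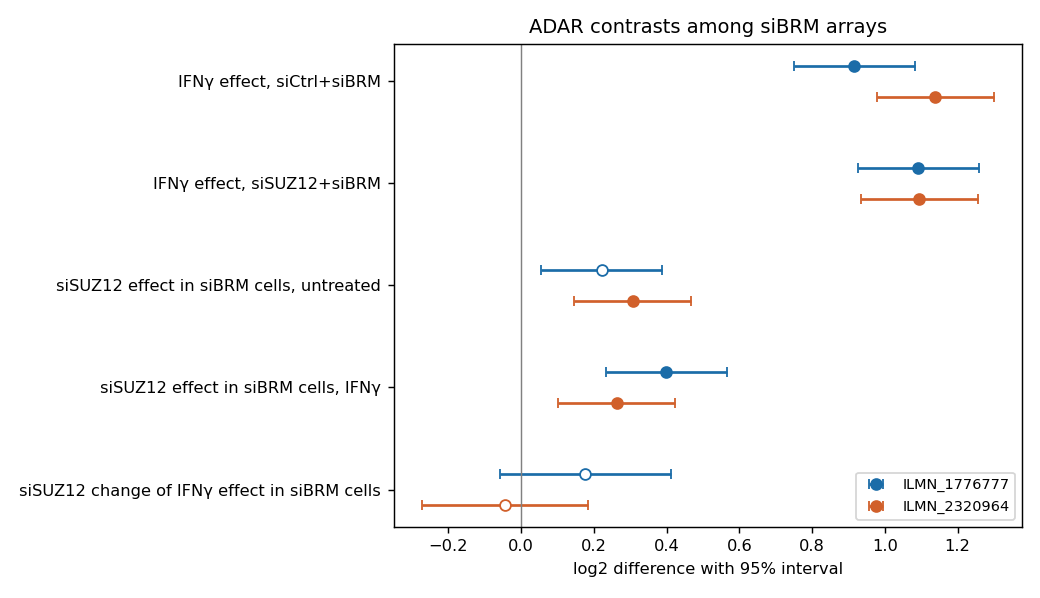
Log2 differences of the 2 ADAR probes, with 95% intervals, in the 5 contrasts among siBRM arrays; filled points had an adjusted p-value below 0.05 (limma) and open points did not. The IFNγ effects lie between 0.92 and 1.14, the siSUZ12 effects lie between 0.22 and 0.40, and the intervals of the siSUZ12 change of the IFNγ effect span 0.

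Adding siBRM went with a higher ADAR signal in each of the 4 backgrounds. These differences set siBRM arrays against the arrays that chose the gene, so they are descriptions with no test. For ILMN_1776777 the log2 difference was 0.20 in untreated siCtrl cells, 0.20 in siCtrl cells with IFNγ, 0.25 in untreated siSUZ12 cells and 0.26 in siSUZ12 cells with IFNγ, and the arrays of the groups overlapped in none of the 4. For ILMN_2320964 it was 0.10, 0.39, 0.17 and 0.21 in the same order, and the groups overlapped in untreated siCtrl cells alone. The largest of these was 1.31-fold. The share of all probes whose arrays separated in these comparisons was not counted, so nothing is read from the lack of overlap. In these backgrounds 1.51%, 1.41%, 1.29% and 1.68% of all probes were raised by the rule above, from which nothing is read here. Single arrays moved the smaller values: in siCtrl cells with IFNγ, ILMN_1776777 fell to 0.12 without replicate 2 of the siCtrl + siBRM arrays, and in untreated siCtrl cells ILMN_2320964 was 0.044 without siCtrl replicate 1 and 0.19 without siCtrl replicate 2. The log2 induction by IFNγ with siBRM minus that without it was -0.002 and 0.28 in siCtrl cells and 0.01 and 0.04 in siSUZ12 cells, for ILMN_1776777 and ILMN_2320964.

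Over the 8 groups the order of the levels was nearly the same for both probes. Untreated siCtrl cells were lowest and siSUZ12 + siBRM cells with IFNγ highest, 2.87-fold apart for ILMN_1776777 and 2.83-fold for ILMN_2320964. The 4 untreated groups lay below the 4 groups with IFNγ, the highest untreated array reading 4044 and 1392 and the lowest array with IFNγ 5519 and 1715. From low to high, the ILMN_1776777 means ran through untreated siCtrl, siSUZ12, siCtrl + siBRM and siSUZ12 + siBRM cells, then siCtrl, siCtrl + siBRM, siSUZ12 and siSUZ12 + siBRM cells with IFNγ. ILMN_2320964 differed only in having untreated siCtrl + siBRM cells below untreated siSUZ12 cells. Neighbours whose arrays overlapped were untreated siSUZ12 and siCtrl + siBRM cells for ILMN_1776777, untreated siCtrl and siCtrl + siBRM cells for ILMN_2320964, and siCtrl + siBRM and siSUZ12 cells with IFNγ for both.

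Among the IFNγ responsive probes, the induction of ADAR in siCtrl + siBRM cells was above the median, and its siSUZ12 effect with IFNγ was at or above it. The reference here is the 280 probes raised by IFNγ in siCtrl cells (limma). The 2 ADAR probes belong to it through the values that chose the gene, so their membership is no result. The siBRM arrays gave none of the means that defined the 280, but the fit pooled the spread over all groups. The calls on the siBRM arrays use that same spread, so the shares raised are not independent of how the 280 were picked. In siCtrl + siBRM cells the median log2 induction of the 280 was 0.70, with quartiles at 0.51 and 1.05, and 91.8% of them were raised. ILMN_1776777 was above 68.2% of them and ILMN_2320964 above 77.1%. The median log2 effect of siSUZ12 on the 280 in siBRM cells with IFNγ was 0.26, against 0.02 over all probes, and 48.6% of them were raised. ILMN_1776777 was above 71.8% of these effects and ILMN_2320964 above 51.1%. The median siSUZ12 change of induction over the 280 was 0.14 in siBRM cells, with 58.2% of them below ILMN_1776777 and 16.4% below ILMN_2320964. These places are descriptions of these arrays, and no test was made of ADAR against the other probes.

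**Figure D3:**
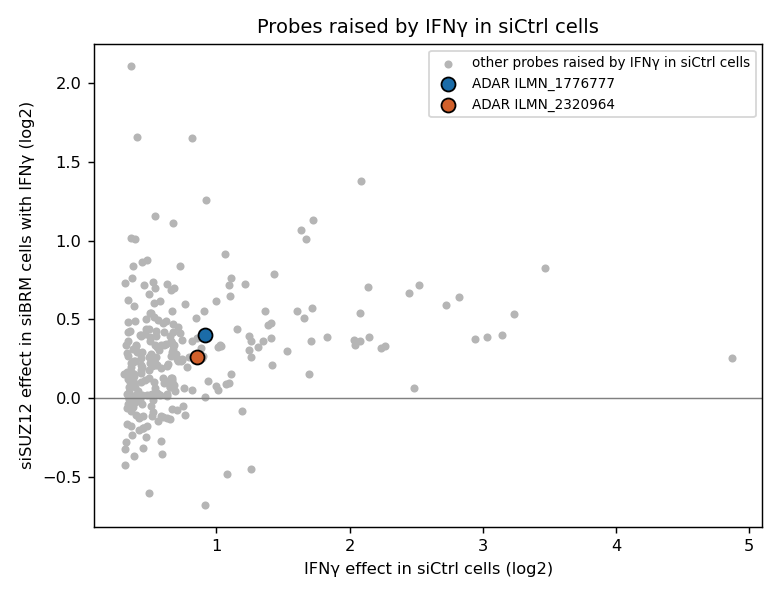
The 280 probes raised by IFNγ in siCtrl cells, with their log2 IFNγ effect there on the x axis and their log2 siSUZ12 effect in siBRM cells with IFNγ, from other arrays, on the y axis; ADAR is in colour. ADAR lies at 0.92 and 0.40 (ILMN_1776777) and at 0.86 and 0.26 (ILMN_2320964), within the bulk of the probes.

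Across the 24 arrays the log2 signals of the 2 ADAR probes had a Pearson correlation of 0.98, which rests on the 8 groups they share. ILMN_2320964 stood at rank 5 of 47230 probes in likeness to ILMN_1776777, and ILMN_1776777 stood at rank 14 for ILMN_2320964. The probes most like the mean of the pair were ILMN_1787509, with a correlation of 0.99, and ILMN_1690921, also at 0.99, whose genes are not named here. Both moved by more than ADAR did. ILMN_1787509 had a mean signal of 687 ± 34.0 (SD, n = 3) in untreated siCtrl cells, 3028 ± 26.7 (SD, n = 3) in siCtrl cells with IFNγ and 7018 ± 90.1 (SD, n = 3) in siSUZ12 + siBRM cells with IFNγ. ILMN_1690921 had 1590 ± 102, 5216 ± 476 and 10433 ± 345 (SD, n = 3) in the same groups. They were picked for their likeness over these arrays, so the likeness is no separate result.

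**Figure D4:**
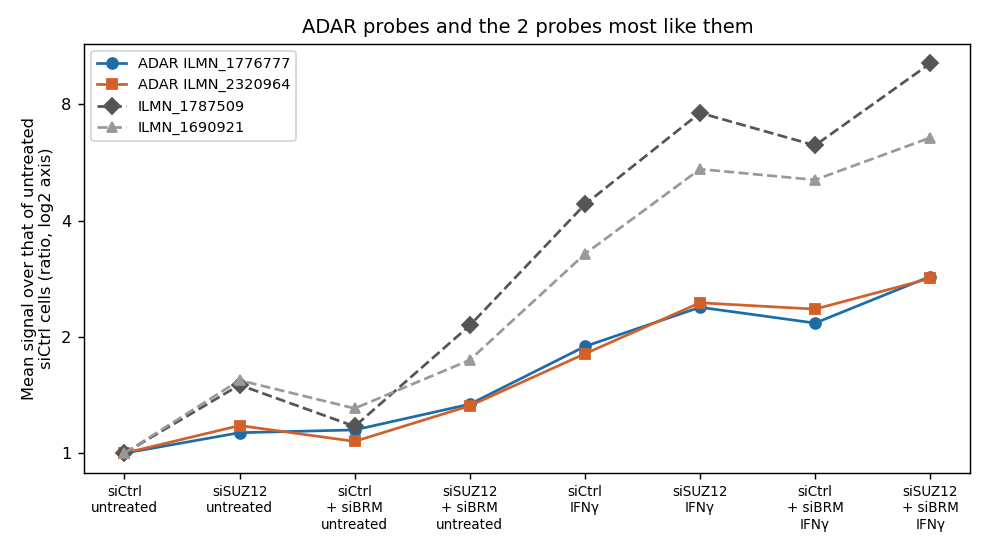
Mean signal of the 8 groups divided by that of untreated siCtrl cells (log2 axis, n = 3 arrays a group) for the 2 ADAR probes (solid) and the 2 probes most correlated with them (dashed). All 4 rise and fall in nearly the same order, and ADAR reaches 2.87 and 2.83 in siSUZ12 + siBRM cells with IFNγ, below the dashed lines.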

How the data were processed

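RNA from 24 SW-13 cultures was hybridized by the authors to Illumina Human-HT-12 BeadChips. They deposited, for 47231 probes, a signal intensity without normalization and a detection p-value for each intensity. Whether background was subtracted and which genome build was used are not given in the sources used here. The lowest intensity was 45.4. Groups and replicate numbers were taken from the sample titles.

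Each array was multiplied so that all 24 had one mean signal, taken here as the average normalization named by the study, floored at 16 (0 values lay below it) and log2 transformed. No background was subtracted here, which understates folds where the deposited signals still hold background. With neqc, an alternative that corrects for background, the IFNγ folds of ILMN_1776777 and ILMN_2320964 were 1.90 and 2.26 in siCtrl + siBRM cells. They were 2.12 and 2.22 in siSUZ12 + siBRM cells. The main fit gave 1.89 and 2.20, then 2.13 and 2.14. limma 3.58.1 (R 4.3.3) was fitted with 1 mean for each of the 8 groups, leaving 16 residual degrees of freedom. siBRM effects within siCtrl or siSUZ12 cells were planned as tests but are given as values, since one side of each was used to choose the gene. p-values were two-sided and adjusted by Benjamini-Hochberg over all probes. On simulated data for IFNγ in siCtrl + siBRM cells (47231 probes, 200 changed), 75.5% were recovered at a log2 change of 0.50, with 8 false calls, and 100% at 1.00. The simulation did not cover changes as small as the siSUZ12 effects on ADAR, nor a siSUZ12 change of induction. It gives no measure of how often those would be called. With 3 arrays a group, permutation cannot give a p-value below 0.1, and the number of arrays limits precision.

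The alternatives were quantile normalization, neqc with an offset of 16, a floor raised to 64, a filter that kept probes detected in 3 or more arrays, fits of just the groups compared, eBayes with a trend and robust option, the replicate number as a block, and leaving out each replicate number or array. The members, gene lists and motif were chosen with earlier results of these data known. The rule for names was the 2 ADAR probes and the 2 probes most correlated with their mean; lists of IFNγ pathway and RNA sensing genes could not be used, since the gene tables at hand held 0 of the probe IDs. Promoters came from a RefSeq table on GRCh38.p14. Plots used matplotlib 3.10.9 (Python 3.11.15).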

Additional observations from a re-analysis of the deposited data

How the results depend on the processing

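The IFNγ effects on both ADAR probes in siCtrl + siBRM and siSUZ12 + siBRM cells kept their direction and an adjusted p-value below 0.05 (limma) in all 16 alternatives of each, and their log2 values ranged from 0.84 to 1.18. The smaller siSUZ12 effects depended on the setting. For ILMN_1776777, the siSUZ12 effect in untreated siBRM cells passed with only detected probes (0.22), with trend and robust settings (0.22) and with quantile normalization (0.26). For ILMN_2320964, the siSUZ12 effect in siBRM cells with IFNγ did not pass when only the groups of the contrast were fitted (0.26, adjusted p = 0.114). Testing only detected probes leaves fewer tests. In the untreated contrast of ILMN_1776777 the standard error was 0.0746 with that filter and 0.0665 with trend and robust settings, against 0.0817 in the main fit. The cause of these changes was not tested.

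Leaving out a replicate number or an array gave log2 values, for ILMN_1776777, from 0.26 to 0.48 for siSUZ12 in siBRM cells with IFNγ and from 0.06 to 0.25 for the siSUZ12 change of induction in siBRM cells. For ILMN_2320964 they ran from 0.22 to 0.29 for siSUZ12 in siBRM cells with IFNγ, 0.25 to 0.35 for it untreated, and -0.13 to 0.02 for the siSUZ12 change of induction in siBRM cells, which changed sign without replicate 1 (0.023). Among untested values of ILMN_2320964, the IFNγ effect in siCtrl cells ran from 0.78 to 0.94, the siSUZ12 effect from 0.18 to 0.34 untreated and from 0.36 to 0.50 with IFNγ, the siSUZ12 change of induction from 0.12 to 0.26 and the siBRM change in siCtrl cells from 0.20 to 0.35. The untested siBRM effects ran, for ILMN_1776777, from 0.11 to 0.28 in siCtrl and from 0.18 to 0.34 in siSUZ12 cells with IFNγ. For ILMN_2320964 they ran from 0.044 to 0.19 in untreated siCtrl cells, 0.32 to 0.43 in siCtrl cells with IFNγ and 0.13 to 0.25 in siSUZ12 cells with IFNγ.

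Replicate numbers were not taken to pair the arrays in the main fit, because no label ties them to a shared batch or day. Of 36 same-numbered pairs, 19 had deviations correlated above 0.1 (lowest -0.10, highest 0.36). Same-numbered pairs had a higher median correlation (0.10) than others (-0.05), and 17 of 24 arrays correlated best with their own number. Arrays of the same number were thus more alike in the data, though the labels do not say why. The siBRM arrays may therefore not be independent of the same-numbered arrays without siBRM. The replicate block changed no tested call of the 2 ADAR probes: the adjusted p-value of siSUZ12 in siBRM cells with IFNγ was 0.000522 for ILMN_1776777 and 0.0284 for ILMN_2320964 (limma).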

Other observations

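The 2 ADAR probes tracked each other across groups but not within them. After the group means were removed, the correlation of their log2 signals over the 24 arrays was -0.01, a description with no test. The ratio of the ILMN_1776777 signal to that of ILMN_2320964 had a mean of 2.70 ± 0.229 (SD, n = 3) in siCtrl + siBRM cells with IFNγ and 3.15 ± 0.0759 (SD, n = 3) in the same cells untreated, the lowest and highest of the 8 group means. These 2 groups did not overlap, with single arrays from 2.55 to 2.97 and from 3.08 to 3.23, while in siSUZ12 + siBRM cells the ratio was 2.98 ± 0.415 (SD, n = 3) with IFNγ and 2.97 ± 0.0883 (SD, n = 3) untreated. This contrast was picked after the ratios were seen, and no test was made of it.

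The spread of ILMN_1776777 between replicates was wider at higher levels. Its SD was 1.14% of the mean in untreated siCtrl cells and 11.1% in siSUZ12 + siBRM cells with IFNγ, where the replicates read 9534, 8465 and 7646. ILMN_2320964 had 5.45% in that group and its widest spread, 10.2%, in untreated siCtrl cells, where replicate 2 read 1130 and the others 929 and 985.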
